A study of Mus musculus with 2 samples.

Results

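The G2 and M phase genes are 38 mouse genes whose products drive a cell from the end of DNA replication through mitosis and cytokinesis. They were taken as a list by function, though with earlier results of these data known. All 38 were among the 24014 gene symbols of the tables and had a column in both libraries. Bone marrow of young male wild type mice of the strain C57B/6 was profiled on the BD Rhapsody platform, which counts messenger RNA molecules per cell with unique molecular identifiers (UMIs). The mice of the HFD library ate a diet with 60% fat for 16 weeks, and those of the ND library ate normal chow for as long. There was 1 library per diet, and how many animals went into each, whether they were pooled and whether cells were sorted are not named in the labels. All comparisons below are therefore between 2 libraries, with no test. Intervals of shares, of levels and of their ratios cover counting error only. An interval beside a median over a list of genes reflects the spread among those genes, which are not independent of each other.

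A cell builds up these transcripts late in S phase, uses the proteins to condense, attach and separate its chromosomes, and destroys most of both by the time the daughter cells enter G1. Cyclins A and B switch on Cdk1 for entry into mitosis, the spindle checkpoint holds the cell until every kinetochore is attached, and the anaphase-promoting complex then breaks down the cyclins. In bone marrow the genes mark the dividing precursors of blood cells, whereas mature neutrophils and plasma cells have left the cell cycle.

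Many genes of this kind carry a cell cycle homology region (CHR), a short element bound by the DREAM and MYB-MuvB complexes, close to the start of transcription and often downstream of CCAAT boxes, which bind NF-Y. RefSeq promoter sequences (build GRCm38.p6, 250 bases before to 50 after the start) were matched for 34 of the 38 members. There was no entry for Aurkb, Kif20a, Tpx2 and Ccna2. The CHR letters TTTGAA, read on both strands, were found in 26 of the 34 members (76.5%), against 20.2% of the promoters of all 27025 genes. Within 50 bases of the start they were found in 22 of 34 members (64.7%) and 5.72% of all genes. The letters CCAAT were in 76.5% of members and 41.1% of all genes, and both motifs together in 64.7% and 7.97%. The second CHR form, TTTAAA, was in 9 members (26.5%) and 14.9% of all genes. The CHR and CCAAT letters overlapped in 1 of the 36 member promoters, since 2 genes had more than 1 start. A match says only that these letters occur in the window.

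The promoters printed here show the arrangements found, with 4 members that had few UMIs outside dividing classes in these libraries and Tubb4b, which had many. Each runs 5′ to 3′ on the strand of its gene, and capitals mark TTTGAA and CCAAT on either strand. Positions count from the start of transcription. Cdc20, at chr4:118437294-118437593 on the minus strand, holds TTTGAA at -18 between CCAAT boxes at -53 and -8. Ccnb2, at chr9:70421505-70421804 on the minus strand, holds it at 5 and at -167, with CCAAT at -87, -54 and -21. Plk1, at chr7:122159185-122159484 on the plus strand, holds it at 31 with CCAAT at -14, and TTTAAA, left in lower case, at -89 and -29. Ccnb1, at chr13:100786437-100786736 on the minus strand, lacks TTTGAA but has TTTAAA at -42 after CCAAT boxes at -99 and -67. Tubb4b, at chr2:25224653-25224952 on the minus strand, holds TTTGAA at -198, far from the start, and 5 CCAAT boxes.
Cdc20: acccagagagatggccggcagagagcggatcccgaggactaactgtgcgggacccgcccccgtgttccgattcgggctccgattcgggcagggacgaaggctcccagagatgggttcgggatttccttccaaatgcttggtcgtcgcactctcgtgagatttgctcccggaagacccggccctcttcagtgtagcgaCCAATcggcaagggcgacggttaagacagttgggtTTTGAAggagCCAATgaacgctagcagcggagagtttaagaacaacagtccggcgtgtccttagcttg
Ccnb2: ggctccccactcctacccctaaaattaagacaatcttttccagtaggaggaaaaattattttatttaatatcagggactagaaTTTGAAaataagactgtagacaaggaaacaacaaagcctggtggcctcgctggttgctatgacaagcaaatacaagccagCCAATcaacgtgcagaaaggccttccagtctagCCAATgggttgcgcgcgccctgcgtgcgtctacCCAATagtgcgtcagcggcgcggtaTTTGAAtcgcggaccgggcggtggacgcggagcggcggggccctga
Plk1: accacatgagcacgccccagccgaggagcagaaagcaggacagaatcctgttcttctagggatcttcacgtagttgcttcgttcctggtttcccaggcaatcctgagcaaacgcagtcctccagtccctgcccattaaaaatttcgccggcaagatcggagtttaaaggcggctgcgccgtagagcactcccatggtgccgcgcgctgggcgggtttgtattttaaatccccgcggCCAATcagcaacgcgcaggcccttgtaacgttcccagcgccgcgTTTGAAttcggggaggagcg
Ccnb1: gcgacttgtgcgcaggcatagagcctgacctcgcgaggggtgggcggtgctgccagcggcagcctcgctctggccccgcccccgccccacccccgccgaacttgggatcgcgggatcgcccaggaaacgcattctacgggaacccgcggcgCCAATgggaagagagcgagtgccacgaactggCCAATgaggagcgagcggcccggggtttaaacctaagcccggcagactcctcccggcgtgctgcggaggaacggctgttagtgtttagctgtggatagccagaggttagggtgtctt
Tubb4b: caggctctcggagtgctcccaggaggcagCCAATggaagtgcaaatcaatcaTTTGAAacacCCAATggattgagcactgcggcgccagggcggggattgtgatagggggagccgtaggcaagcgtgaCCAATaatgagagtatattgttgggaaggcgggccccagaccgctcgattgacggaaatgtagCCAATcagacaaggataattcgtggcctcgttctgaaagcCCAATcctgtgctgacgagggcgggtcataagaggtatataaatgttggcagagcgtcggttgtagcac
Members without TTTGAA in the window were Birc5, Bub1, Ccnb1, Cenpe, Cks2, Nuf2, Nusap1 and Tacc3, and Birc5, Ccnb1 and Cenpe among them held TTTAAA.

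The HFD library held 17282 cells with 117773643 UMIs (median 3625.5 per cell) and the ND library 16817 cells with 117999042 UMIs (median 3644), and 329 cell indices occurred in both. After a filter on genes and mitochondrial UMIs and the removal of doublets, 15214 HFD and 13890 ND cells remained, with a median of 4075.5 and 4480 UMIs. They fell into 34 clusters, made without the members and other cell cycle genes. Whether dividing cells still separated through genes outside these lists was not tested. Of these clusters 33 took the names of 19 classes from marker genes and are called X-like. A class was compared where both libraries had at least 100 of its cells, which 17 classes met. A cell is called cycling below when at least 3 of the 38 members had a UMI after the cell was thinned to 1000 UMIs, which removes differences in depth. Division itself was not measured. Cells under 1000 UMIs, 735 in HFD and 790 in ND, were left out.

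The share of cycling cells was close in the 2 libraries as wholes. In HFD 3636 of 14479 cells were cycling, or 25.1% (exact 95% interval 24.4 to 25.8%), and in ND 3465 of 13100, or 26.5% (25.7 to 27.2%), a ratio of 0.949 (0.912 to 0.988). Without thinning the shares were 44.1% and 45.4%. The direction went with the mix of classes. With the HFD cells weighted to the class mix of the ND library, the HFD share was 27.2% and the ratio 1.03. At the mix of ND clusters, an alternative chosen after seeing the data, it was 27.8% and 1.05. Erythroid-like cells, in which the cycling share was highest, were 5.71% of kept HFD cells and 8.47% of kept ND cells, and supplied 18.2% and 25.5% of the cycling cells. Neutrophil progenitor-like cells supplied 22.0% of cycling cells in HFD and 19.8% in ND, and basophil or mast cell-like cells 10.6% and 10.2%. The cut lay among many cells: 1305 HFD and 1072 ND cells had exactly 2 members, and 624 and 530 exactly 3.

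**Figure D1:**
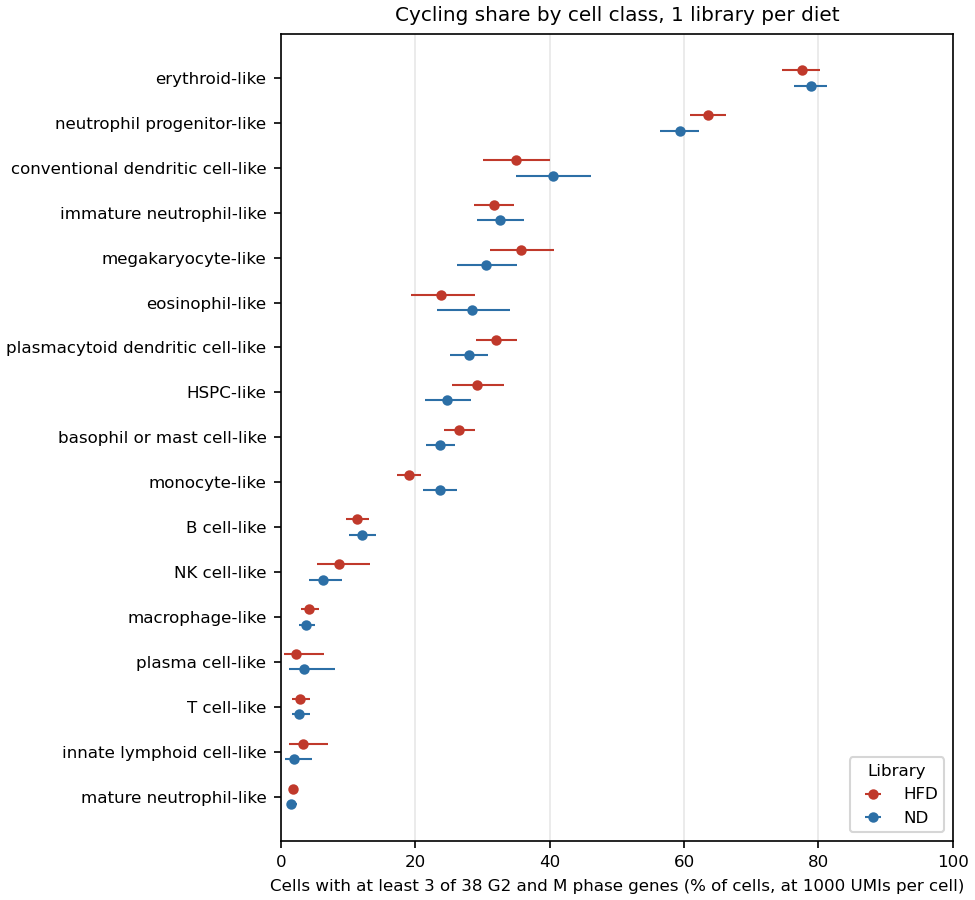
Percent of cells with at least 3 of the 38 members at 1000 UMIs per cell (x axis) in each of the 17 classes compared (y axis). Points are the HFD library (red, upper) and the ND library (blue, lower), with exact 95% intervals for counting error; erythroid-like (77.5% and 78.9%) and neutrophil progenitor-like cells (63.6% and 59.3%) stand at the top, and mature neutrophil-like cells (1.73% and 1.53%) at the bottom, in both libraries.

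The order of classes was much the same in both libraries. Erythroid-like cells were cycling at 77.5% in HFD (661 of 853) and 78.9% in ND (885 of 1122), and neutrophil progenitor-like cells at 63.6% and 59.3%. A broad middle group followed. Megakaryocyte-like cells had 35.7% and 30.5%, conventional dendritic cell-like cells 35.0% and 40.5%, plasmacytoid dendritic cell-like cells 32.05% and 27.9%, immature neutrophil-like cells 31.7% and 32.5%, stem and progenitor (HSPC)-like cells 29.2% and 24.7%, basophil or mast cell-like cells 26.5% and 23.7%, eosinophil-like cells 23.9% and 28.4%, and monocyte-like cells 19.0% and 23.6%. The intervals of neighbours in this group overlap within a library, so their order is not resolved. Of the plasmacytoid dendritic cell-like cells, 63.0% in HFD and 60.4% in ND lay in a cluster led by Dntt and Flt3. These are markers of the pro- and pre-B cell and HSPC classes, so the class name may not hold for those cells. B cell-like cells had 11.3% and 12.04%, and NK cell-like cells 8.68% and 6.31%. Pro- and pre-B cell-like cells, with 132 and 91 cells too few to be compared, were cycling at 47.0% in HFD and 42.9% in ND.

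Mature neutrophil-like cells, which should lack these transcripts, set the background. At 1000 UMIs 34 of 1967 HFD cells (1.73%, 1.20 to 2.41%) and 19 of 1240 ND cells (1.53%, 0.925 to 2.38%) reached 3 members, at a median depth of 2644.5 and 2954 UMIs before thinning. Without Bub3, Tubb4b, Cks1b and Cks2, which are also used outside mitosis, the shares were 0.813% and 0.484%. Unthinned, 10.04% and 11.1% of the same cells would have counted as cycling. Shares of 2.22% and 3.50% in plasma cell-like cells, 2.78% and 2.72% in T cell-like cells, and 3.31% and 1.99% in innate lymphoid cell-like cells had intervals that overlapped the background, and are not read as division. Macrophage-like cells had 4.21% and 3.73%, with 591 HFD and 694 ND cells left out as too shallow.

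**Figure D2:**
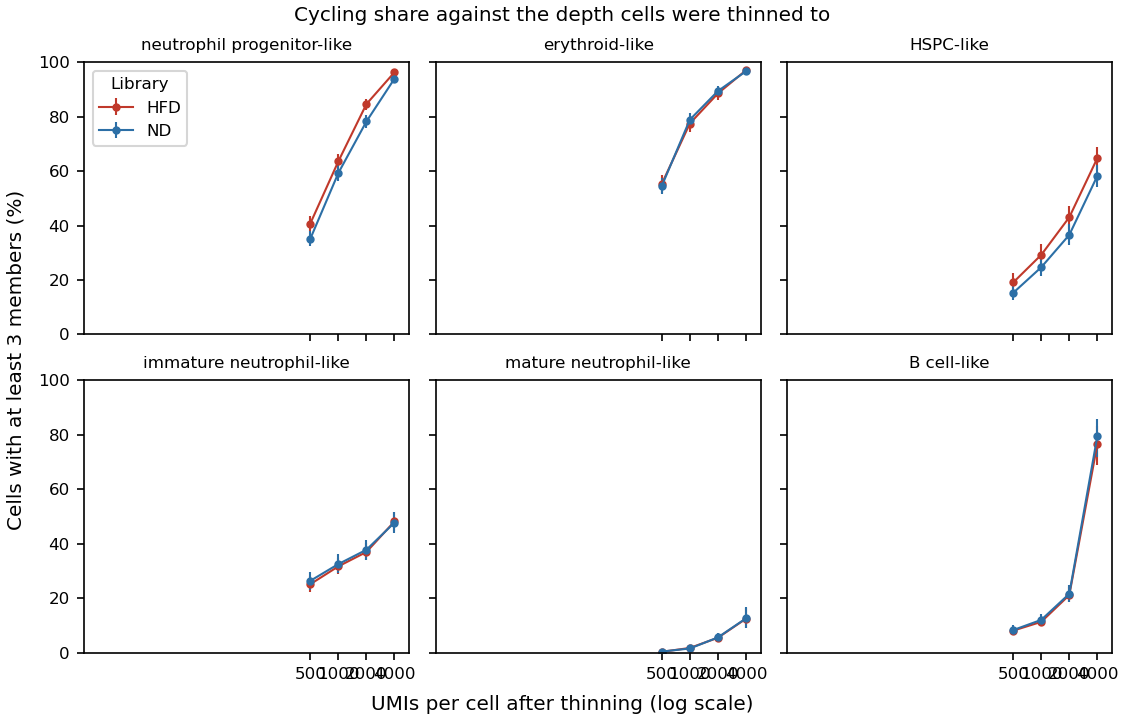
Percent of cells with at least 3 members (y axis) against the number of UMIs cells were thinned to (x axis, log scale) in 6 classes. Red is HFD and blue is ND, with exact 95% intervals; every curve climbs with depth, neutrophil progenitor-like cells to 96.3% in HFD and 94.0% in ND at 4000 UMIs, so a share has meaning only at a stated depth.

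The depth a cell was thinned to changed the shares by far more than the 2 libraries differed. Neutrophil progenitor-like cells were cycling at 40.8% in HFD and 35.1% in ND at 500 UMIs, at 84.6% and 78.2% at 2000, and at 99.1% and 98.8% without thinning, where the median depth was 20747 and 20318.5 UMIs. At 500, 1000 and 2000 UMIs the HFD share was the higher by ratios of 1.16, 1.07 and 1.08, while unthinned the ratio was 1.00. HSPC-like cells were cycling at 43.1% in HFD and 36.6% in ND at 2000 UMIs, against 29.2% and 24.7% at 1000. Shares between classes are thus set side by side only at 1000 UMIs.

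Within classes, the interval of the HFD over ND ratio held 1 in 15 of the 17 classes compared. It lay above 1 in neutrophil progenitor-like cells and below 1 in monocyte-like cells. In neutrophil progenitor-like cells 801 of 1259 HFD cells (63.6%, 60.9 to 66.3%) and 687 of 1158 ND cells (59.3%, 56.4 to 62.2%) were cycling, a ratio of 1.07 (1.01 to 1.14). The class held an earlier cluster led by Mpo and Cd34 and a later one led by Elane and Fcnb, in nearly the same mix in both libraries (70.2% and 70.1% in the earlier one). In the earlier cluster 63.0% of HFD and 56.9% of ND cells were cycling (1.11, 1.02 to 1.20). In the later one the shares were 65.2% and 65.0% (1.00, 0.900 to 1.12). The difference between the 2 clusters was not tested.

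In monocyte-like cells 344 of 1812 HFD cells (19.0%, 17.2 to 20.9%) and 254 of 1076 ND cells (23.6%, 21.1 to 26.3%) were cycling, a ratio of 0.804 (0.697 to 0.928). The shares were close within each of the 2 clusters of the class. In the cluster of classical monocyte genes, led by Fn1 and Ccr2, 39.8% of HFD and 39.4% of ND cells were cycling (1.01, 0.888 to 1.15). In the cluster led by Ace and Nr4a1, genes of patrolling monocytes, the shares were 1.81% and 1.77%, at the level of mature neutrophil-like cells. The second cluster held 55.2% of the monocyte-like cells in HFD and 42.6% in ND. Weighted to the ND mix of the 2 clusters, the HFD share was 23.9% and the ratio 1.01.

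HSPC-like cells, the earliest class, were cycling at 29.2% in HFD (162 of 554, 25.5 to 33.2%) and 24.7% in ND (158 of 640, 21.4 to 28.2%). The ratio was 1.18, and its interval held 1 at 1000 UMIs (0.982 to 1.43) but not at 2000 (1.02 to 1.35). Median depth was 8671 and 8394 UMIs. Plasmacytoid dendritic cell-like cells, whose class name may not hold for most of them, had a ratio of 1.15 (1.00 to 1.32). That of megakaryocyte-like cells was 1.17 (0.966 to 1.42). Erythroid-like cells had a ratio of 0.982 as a class (0.937 to 1.03). The cluster led by Car1, an early erythroid carbonic anhydrase, was cycling at 78.7% in HFD and 71.3% in ND (1.10, 1.02 to 1.20). It is only 1 of the clusters of the class and was picked after its values were seen. Immature neutrophil-like cells had 31.7% and 32.5%, a ratio of 0.974 (0.847 to 1.12).

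The S phase genes, 47 genes of DNA replication, were counted in the same way. The phase of a cell was not measured. In immature neutrophil-like cells 12.5% of HFD and 13.3% of ND cells had at least 3 G2 and M phase genes without 3 S phase genes, and 3.63% and 3.77% had the reverse. In HSPC-like cells 6.68% and 5.16% had the G2 and M phase genes alone, while 37.0% and 36.9% had the S phase genes alone. Erythroid-like cells mostly had both lists, at 72.8% and 73.6%. The lists differ in length and in the levels of their genes, so only the contrast between classes is read, and it was nearly the same in both libraries. In HSPC-like cells 59.6% of HFD and 56.4% of ND cells had at least 3 S phase genes.

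**Figure D3:**
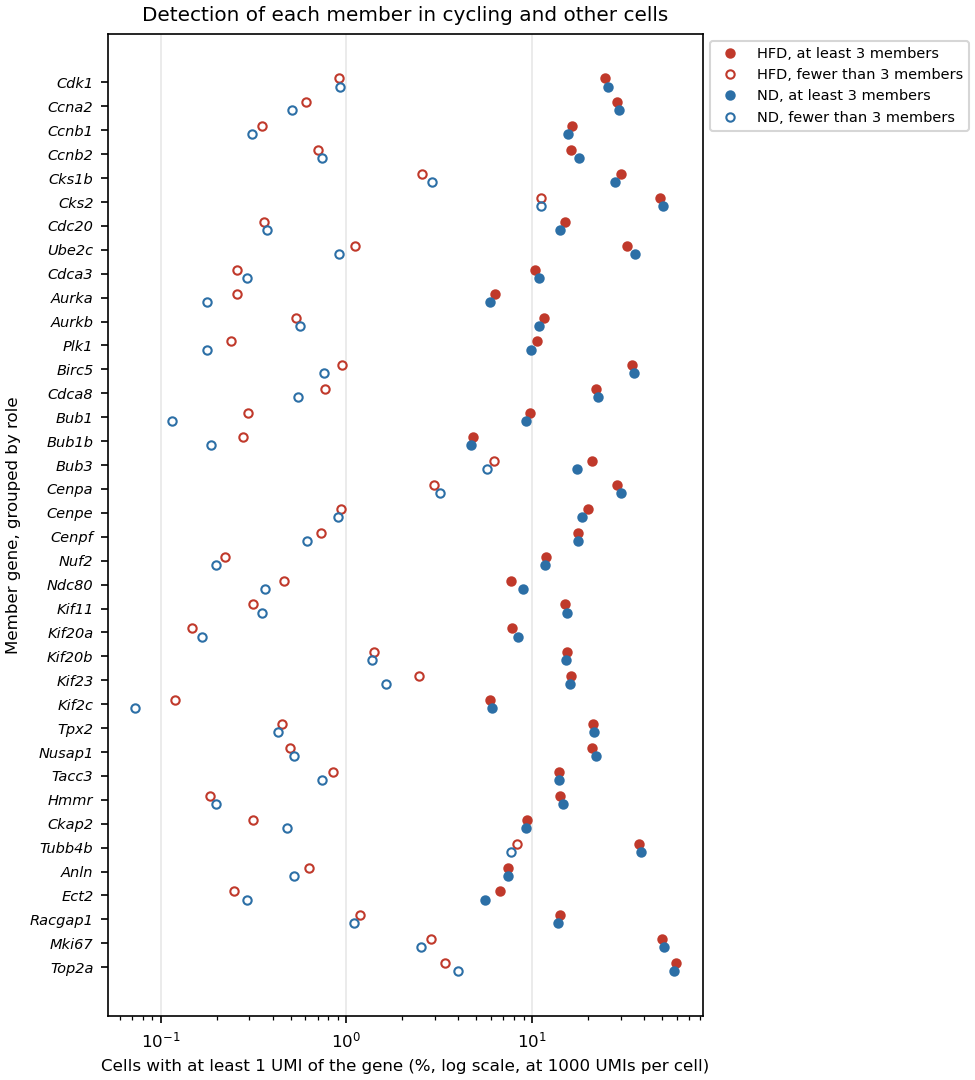
Percent of cells with at least 1 UMI of each member at 1000 UMIs per cell (x axis, log scale), for cells with at least 3 members (filled) and all other kept cells (open), in HFD (red, upper) and ND (blue, lower). Cells with 3 members were chosen by these genes, so the gap is a description; it is narrowest for Bub3, Cks2 and Tubb4b, whose open points lie at 5.69% or above.

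The members differed in how their levels varied across the classes. The following levels are UMIs of a gene per 1000000 UMIs of a class (CPM), and levels of different genes are not compared, since they are not given per length. Among the regulators of Cdk1, the kinase itself had 264 CPM in HFD and 248 CPM in ND erythroid-like cells, against 4.58 and 5.13 CPM in mature neutrophil-like cells. Ccna2, the S and G2 phase cyclin A2, had 363 and 366 CPM in erythroid-like cells and 6.52 and 5.13 CPM in mature neutrophil-like cells. For the mitotic B cyclins, Ccnb1 had 211 and 213 CPM against 3.70 and 2.31 CPM, and Ccnb2 137 and 153 CPM against 2.11 and 1.80 CPM, in the same classes. All 4 genes thus had few UMIs in mature neutrophil-like cells of both diets.

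Of the small subunits that bind cyclin-dependent kinases, Cks1b followed that pattern and Cks2 did not. Cks1b was highest in neutrophil progenitor-like cells (323 CPM in HFD, 295 CPM in ND) and had 5.81 and 5.13 CPM in mature neutrophil-like cells. Cks2 kept 167 and 201 CPM in mature neutrophil-like cells, and 950 and 782 of their UMIs. In the basophil cluster led by Ccl4 and Ccl3, where 4.58% of HFD and 2.96% of ND cells were cycling, Cks2 had 479 and 492 CPM, against 804 and 818 CPM in the cluster led by Mcpt8 and Prss34, where 55.8% and 52.9% were. Cks2 was detected in 11.2% of HFD and 11.2% of ND cells that had fewer than 3 members.

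The genes of the anaphase-promoting complex and its targets had few UMIs in mature neutrophil-like cells. Cdc20, the activator of the complex, had 141 CPM in HFD and 144 CPM in ND erythroid-like cells, and 2.82 and 2.31 CPM in mature neutrophil-like cells. Ube2c, the ubiquitin-conjugating enzyme that works with it, was highest in conventional dendritic cell-like cells (412 CPM in HFD, 605 CPM in ND). Cdca3, which promotes mitotic entry, had 93.1 and 97.2 CPM in erythroid-like cells and 1.23 and 1.28 CPM in mature neutrophil-like cells.

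The mitotic kinases and their partners varied in the same way. Plk1 had 109 and 98.9 CPM in erythroid-like cells against 2.11 and 1.54 CPM in mature neutrophil-like cells. Aurka, which acts at centrosomes, had 56.7 and 54.3 CPM against 1.94 and 2.05 CPM, and Aurkb, the kinase of the chromosomal passenger complex, 87.7 and 84.1 CPM against 2.11 and 1.80 CPM. Birc5 (survivin) and Cdca8 (borealin) belong to the passenger complex as well. Birc5 had 421 and 418 CPM in erythroid-like cells and 8.46 and 5.39 CPM in mature neutrophil-like cells.

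Among the spindle checkpoint genes, Bub3 varied least across classes. Bub1, a checkpoint kinase at kinetochores, had 78.9 and 83.2 CPM in erythroid-like cells, against 1.23 CPM in HFD and no UMI in ND mature neutrophil-like cells. Its partner Bub1b had 34.1 and 32.6 CPM against 1.59 and 1.03 CPM in these classes. Bub3, which also works outside mitosis, had 179 and 158 CPM against 37.7 and 44.4 CPM, and its highest class was 4.74-fold in HFD and 4.37-fold in ND above its lowest. For Tubb4b, a beta-tubulin of interphase microtubules too, this ratio was 10.8 in HFD and 11.4 in ND. Every other member had a ratio of at least 23.1 where its lowest class had a UMI. Bub3, Tubb4b, Cks1b and Cks2 together gave 61.4% of all member UMIs in HFD and 67.8% in ND mature neutrophil-like cells, against 21.6% and 22.7% in HSPC-like cells.

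Kinetochore, motor and cytokinesis genes had their highest levels in different classes. Among the 17 classes compared, Cenpe, a kinetochore motor, and Cenpf were highest in conventional dendritic cell-like cells of both libraries (169 and 202 CPM, and 173 and 207 CPM). So were the central spindle genes Kif23 (224 and 256 CPM) and Racgap1 (183 and 215 CPM). Kif20b, a kinesin of late mitosis, was highest in basophil or mast cell-like cells (157 and 152 CPM). Kif11, the motor that separates the spindle poles, peaked in plasmacytoid dendritic cell-like cells in HFD (116 CPM) and conventional dendritic cell-like cells in ND (127 CPM). Of the member UMIs of plasmacytoid dendritic cell-like cells in HFD, 37984 of 41072 lay in the cluster led by Dntt and Flt3. The class name may not hold for that cluster. Anln, which organises the cleavage furrow, had 70.9 and 56.0 CPM in immature neutrophil-like cells and 64.0 and 58.4 CPM in erythroid-like cells. In mature neutrophil-like cells Kif23 still had 49.7 and 40.3 CPM, while Racgap1, its partner in the centralspindlin complex, had 1.76 and 1.54 CPM, each to be read against the level of the same gene given above. Cenpa, the histone H3 variant of centromeres, kept 30.3 and 28.5 CPM there, against 453 and 449.8 CPM in erythroid-like cells. Among the remaining members, Cdca8, Nuf2, Ndc80, Kif20a, Kif2c, Tpx2, Nusap1, Tacc3, Hmmr, Ckap2 and Ect2, levels in mature neutrophil-like cells were at most 4.62 CPM in either library.

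The chromosome proteins most often used as proliferation markers were lowest in mature neutrophil-like cells. Mki67, the Ki-67 protein that coats mitotic chromosomes, had 596 CPM in HFD and 645 CPM in ND erythroid-like cells and 15.3 and 7.96 CPM in mature neutrophil-like cells. Top2a, the DNA topoisomerase that disentangles sister chromatids, had 708 and 700.4 CPM in erythroid-like cells and 17.6 and 19.2 CPM in mature neutrophil-like cells. Pro- and pre-B cell-like cells, outside the comparison, had 1354 and 1222 CPM of Top2a. In the kept cells with at least 3 members, which these genes helped to choose, Top2a was detected in 59.4% of HFD and 57.9% of ND cells and Mki67 in 49.8% and 51.7%.

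Levels were then compared between the diets class by class. The call for a gene, higher or lower in HFD, was made where the log2 ratio of its CPM, HFD over ND, was at least 1.5-fold in size with a 95% interval that excluded 0, among genes with at least 20 UMIs in the class. Over all kept cells 0 of 38 members were called, against 2.73% of all genes called higher and 3.98% called lower. The median log2 ratio of the members was -0.05 (-0.07 to -0.02), and that of all genes tested -0.03. Summed over the list, the members had 5194 CPM in HFD and 5387 CPM in ND.

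**Figure D4:**
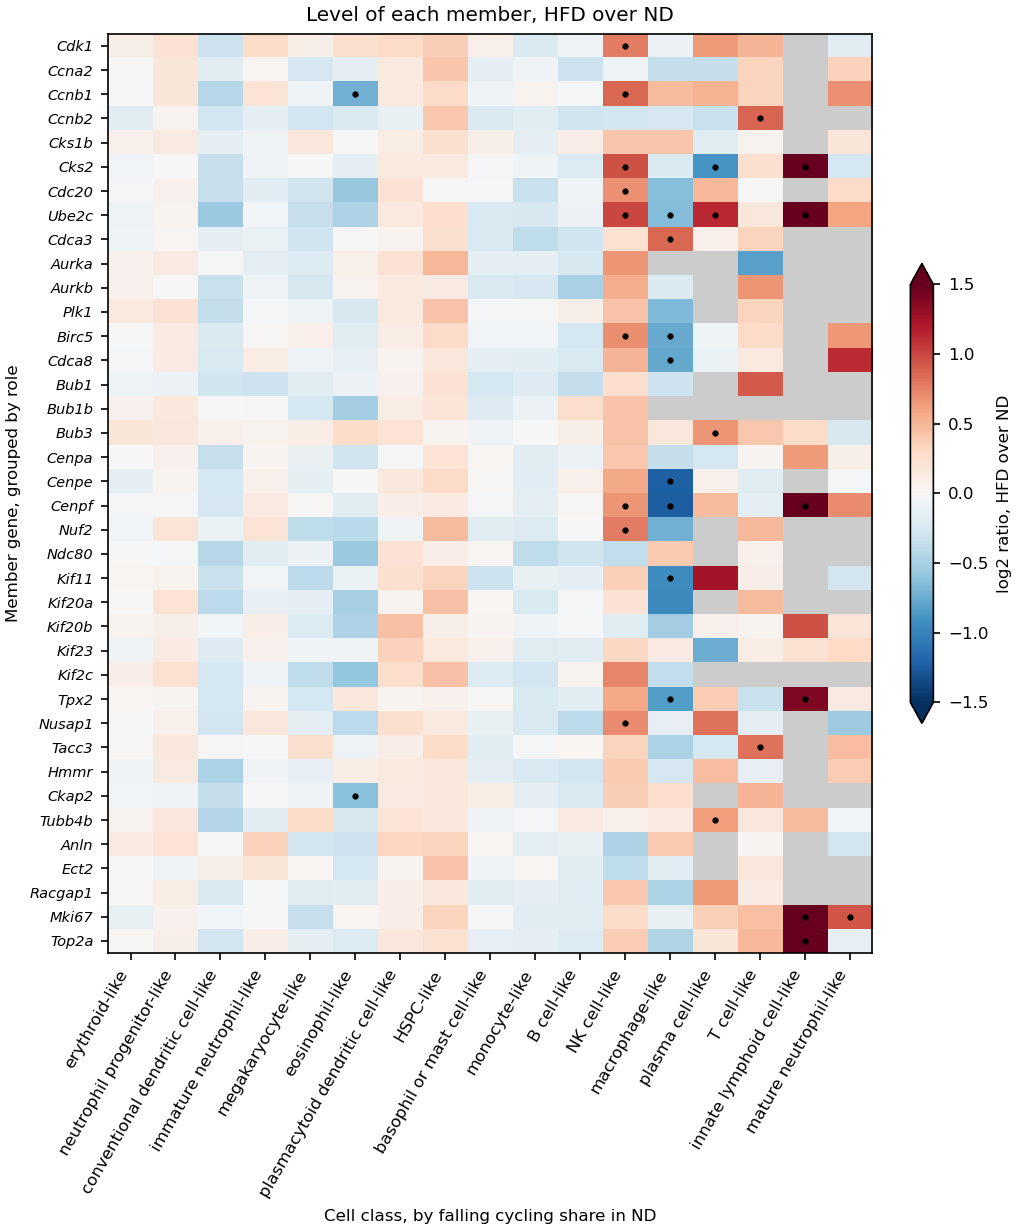
Log2 ratio of the level, HFD over ND (colour, red for higher in HFD), of each member (rows, grouped by role) in each of the 17 classes (columns, by falling cycling share in ND). Grey cells had under 20 UMIs and dots mark members called higher or lower; HSPC-like cells are above 0 in all 38 rows with no dot, and dots gather in NK cell-like, macrophage-like and innate lymphoid cell-like cells.

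In HSPC-like cells the whole list stood higher in HFD, by small amounts. The log2 ratio was above 0 for 38 of 38 members, with a median of 0.23 (0.16 to 0.29), while 52.1% of all genes tested were above 0 and their median was 0.01. It ranged between 0.01 for Cdc20 and 0.50 for Aurka, and 0 of 38 members reached the call, against 1.64% of all genes called higher and 2% called lower. The interval lay above 0 for 22 members, against 9.75% of all genes. An interval excludes 0 more readily at high counts, and members and all genes were not matched for counts. Summed over the list, HSPC-like cells had 4304 CPM in HFD and 3679 CPM in ND, and the 10 cells with most member UMIs held 13.9% and 14.0% of them. These ratios rest on the same cells and share their source, so the members are not independent of each other.

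By role, all groups of the list were above 0 in HSPC-like cells. Cdk1 had 144 CPM in HFD and 112 CPM in ND (log2 ratio 0.37, 0.22 to 0.52), Ccna2 139 and 104 CPM (0.42, 0.26 to 0.57), and Ccnb1 77.0 and 63.4 CPM (0.28, 0.08 to 0.48). Ccnb2 had 68.1 and 51.5 CPM (0.40). Aurka, the highest ratio, rested on 143 and 112 UMIs (25.6 and 18.1 CPM, 0.13 to 0.87). It was followed by Nuf2, a subunit of the NDC80 complex that binds microtubules, with 50.05 and 36.1 CPM (0.47, 0.21 to 0.73), and Kif2c, a microtubule depolymerase, with 25.4 and 18.7 CPM (0.44, 0.08 to 0.81). The remaining mitotic kinases and motors lay between these ends. Plk1 had 30.9 and 22.9 CPM (0.43), Kif11 82.0 and 65.0 CPM (0.34), Cenpe 107 and 87.1 CPM (0.29) and Anln 30.6 and 24.2 CPM (0.34). Smaller ratios were those of Birc5 (156 and 128 CPM, 0.28), Ube2c (170.0 and 142 CPM, 0.26), Cks1b (208 and 176 CPM, 0.24), Bub1b (21.6 and 18.9 CPM, 0.20), Tubb4b (288 and 259 CPM, 0.16), Cks2 (314 and 284 CPM, 0.14), Aurkb (57.6 and 52.7 CPM, 0.13) and Cenpf (102 and 93.9 CPM, 0.12). All other members lay between 0.09 for Kif20b and 0.44 for Kif20a. Mki67 had 332 and 263 CPM (0.34, 0.24 to 0.43) and Top2a 601 and 512 CPM (0.23, 0.16 to 0.30). The lowest 3 were Tpx2, which activates Aurora A on the spindle (108 and 103 CPM, 0.06), Bub3 (120.5 and 116 CPM, 0.05) and Cdc20 (65.4 and 65.0 CPM, 0.01, -0.20 to 0.22). Within HSPC-like cells that were cycling, the summed level was 8697 CPM in HFD and 8415 CPM in ND.

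Other cell cycle genes of HSPC-like cells gave a mixed picture. Of 47 S phase genes 40 had a log2 ratio above 0 (median 0.13, 0.09 to 0.22) and 1 was called higher, Mcm10, a replication initiation factor with 43.6 CPM in HFD and 27.7 CPM in ND (0.65). Of 20 G2/M regulators 2 were called higher, Lin52, a subunit of the MuvB core (16.1 and 8.71 CPM, 0.89), and Ccnf, cyclin F (19.8 and 13.1 CPM, 0.60). Of 17 G1 cyclins and kinases 1 was called lower, Ccnd1, cyclin D1, with 54.2 CPM in HFD and 83.6 CPM in ND (-0.63, -0.83 to -0.42). Of 16 CDK inhibitors and arrest genes tested 1 was called lower, Cdkn3 (10.2 and 16.1 CPM, -0.66).

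**Figure D5:**
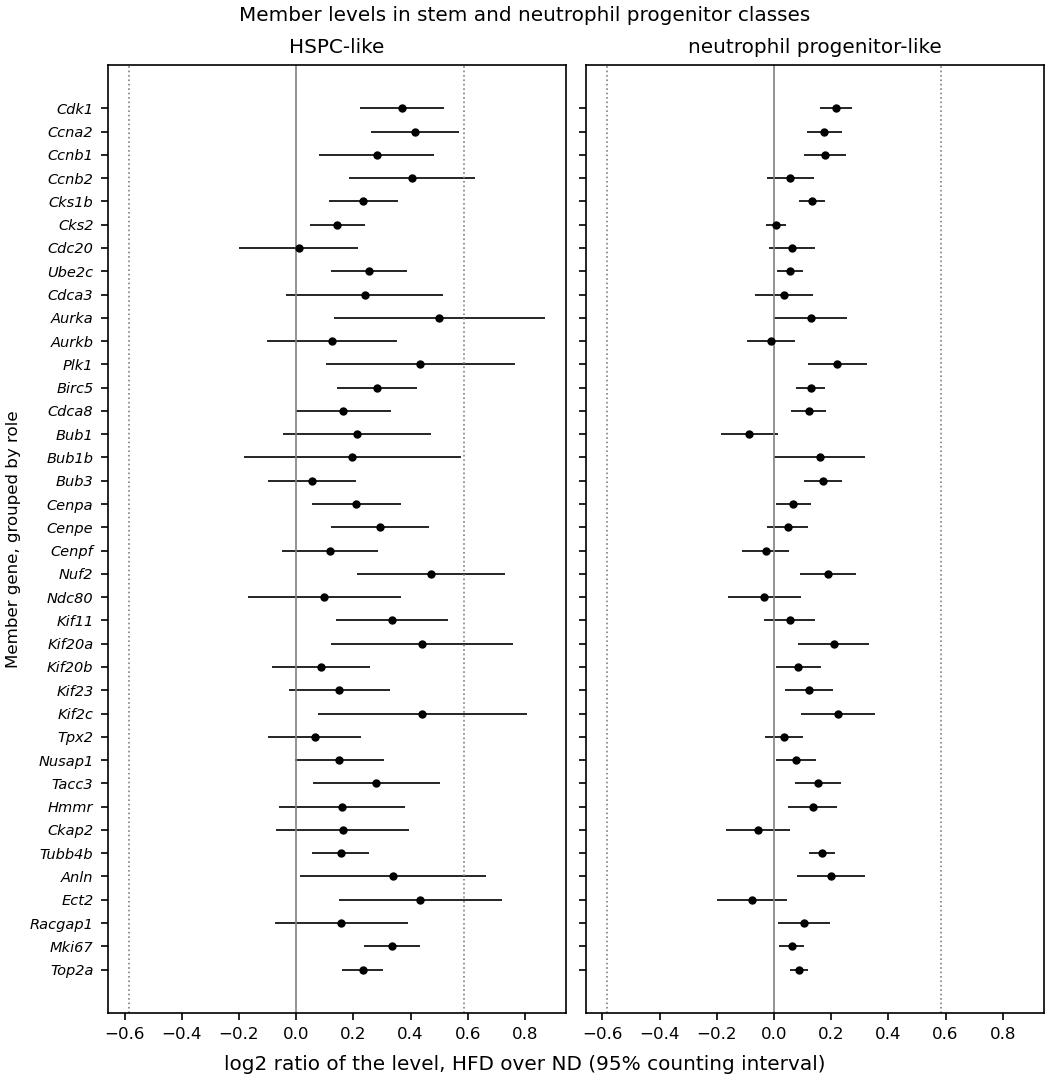
Log2 ratio of the level, HFD over ND (x axis), of each member (y axis, grouped by role) in HSPC-like cells (left) and neutrophil progenitor-like cells (right), with 95% counting intervals. The solid line marks 0 and the dotted lines 1.5-fold; all 38 points lie right of 0 in HSPC-like cells and 32 of 38 in neutrophil progenitor-like cells, and no point passes a dotted line.

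Neutrophil progenitor-like cells had smaller ratios in the same direction for most members. The log2 ratio was above 0 for 32 of 38 members (49.3% of all genes), with a median of 0.10 (0.06 to 0.14), against a median of -0.00 for all genes. No member was called, against 1.02% of all genes called higher and 2.05% called lower. The interval lay above 0 for 25 members against 15.7% of all genes, again not matched for counts. Cdk1 had 223 CPM in HFD and 192 CPM in ND (0.22, 0.16 to 0.27), Plk1 66.4 and 57.0 CPM (0.22, 0.12 to 0.32), and Kif2c 42.3 and 36.2 CPM (0.22, 0.09 to 0.35). At the other end stood Bub1 with 63.1 and 67.0 CPM (-0.09, -0.19 to 0.01), the cytokinesis factor Ect2 with 41.6 and 43.8 CPM (-0.08), and the spindle protein Ckap2 with 51.2 and 53.2 CPM (-0.06). The S phase genes had a median of 0.04 (0.02 to 0.06), and 0 of 47 were called.

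Later in the neutrophil lineage the ratios of the list lay on both sides of 0. In immature neutrophil-like cells 20 of 38 members were above 0 with a median of 0.01, and 0 were called, against 2.48% of all genes higher and 1.93% lower. Anln had the highest ratio there (70.9 and 56.0 CPM, 0.34, 0.12 to 0.56), before Cdk1 (199 and 165 CPM, 0.27) and Nuf2 (87.3 and 75.6 CPM, 0.21). Bub1 had the lowest (46.7 and 57.8 CPM, -0.31, -0.54 to -0.07), before Cdc20 (94.8 and 106 CPM, -0.16) and Ndc80 (58.2 and 64.9 CPM, -0.16). In mature neutrophil-like cells 24 members had 20 UMIs, and 1 was called higher, against 2.09% of all genes higher and 2.86% lower. This was Mki67, with 87 UMIs in HFD and 31 in ND (15.3 and 7.96 CPM, 0.95, 0.34 to 1.59). Top2a, with 100 and 75 UMIs (17.6 and 19.2 CPM, -0.13), had no such ratio. Cks2 was lowest among the 7 members with 100 UMIs (167 and 201 CPM, -0.26), with Bub3 next (-0.24), and Kif23 (0.30) and Cenpa (0.09) followed Mki67 at the upper end.

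Conventional and plasmacytoid dendritic cell-like cells differed in sign. In conventional dendritic cell-like cells 5 of 38 members were above 0 (51.8% of all genes), the median was -0.26 (-0.33 to -0.19), and the summed level was 6350 CPM in HFD and 7585 CPM in ND. No member was called, against 4.22% of all genes higher and 2.04% lower. The interval lay below 0 for 25 members against 6.67% of all genes, not matched for counts. Ube2c had the lowest ratio (412 and 605 CPM, -0.55, -0.66 to -0.44), followed by Hmmr, a spindle-associated protein (97.4 and 135 CPM, -0.48), and Tubb4b (198 and 268 CPM, -0.44). Ect2 (42.7 and 40.3 CPM, 0.08), Bub3 (0.08) and Tacc3 (0.02) had the highest. The S phase genes ran the other way, with 34 of 47 above 0 and a median of 0.12. Of 16 G1 cyclins and kinases tested 3 were called higher in the same cells: Ccne1, cyclin E1 (19.3 and 9.97 CPM, 0.96), Ccne2, cyclin E2 (22.3 and 12.3 CPM, 0.86) and Ccnd2, cyclin D2 (132 and 72.9 CPM, 0.86). In plasmacytoid dendritic cell-like cells 35 of 38 members were above 0 (50.1% of all genes), with a median of 0.14 (0.11 to 0.17). The interval lay above 0 for 19 members of these cells against 9.6% of all genes, not matched for counts. No member was called there, against 1.48% and 2.14% of all genes, and Kif20b had the highest ratio (112 and 82.7 CPM, 0.44, 0.29 to 0.60), followed by Kif23 (213 and 168 CPM, 0.34) and Anln (53.0 and 42.4 CPM, 0.32). Ccnb2 (96.9 and 104 CPM, -0.11), Nuf2 (-0.06) and Cenpa (-0.03) were the members below 0. The 2 clusters of the class, looked at after their values were seen, differed. The cluster led by Dntt and Flt3, markers of other classes here, had a median of 0.07 (0.04 to 0.10). It had no member called, with no share of all genes given for it. Its summed level was 7228 CPM in HFD and 6879 CPM in ND, against 1921 and 1347 CPM in the other cluster. In the cluster led by Siglech and Ccr9, with 37.0% of the HFD and 39.6% of the ND cells of the class, 36 of 38 were above 0 with a median of 0.45 (0.32 to 0.58). There 9 members were called higher and 0 lower, against 3.12% and 2.45% of all genes, among them Ube2c (146 and 64.5 CPM, 1.18) and Cenpe (54.7 and 28.0 CPM, 0.97). Its cycling shares were 5.95% and 6.41%, and the 10 cells with most member UMIs held 70.9% and 60.6% of them.

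Monocyte-like cells had lower member levels as a class, but not within the dividing cluster. Of 38 members 4 were above 0 (51.3% of all genes), the median was -0.15 (-0.19 to -0.13), and 0 were called, against 2.66% of all genes higher and 1.76% lower. Cdca3 (53.4 and 69.4 CPM, -0.38) and Ndc80, a kinetochore subunit (39.0 and 50.6 CPM, -0.38), had the lowest ratios, with Cdc20 next (62.8 and 79.0 CPM, -0.33). Ccnb1 (83.1 and 80.0 CPM, 0.06), Ect2 (0.03) and Plk1 (0.02) had the highest. In the cluster led by Fn1 and Ccr2 the median was -0.00 (-0.06 to 0.04) and 18 of 38 were above 0. Ccnd2, called higher in the class (41.3 and 23.3 CPM, 0.83), was called higher in that cluster, with 50.1 CPM in HFD and 21.5 CPM in ND (1.22, 0.93 to 1.53), and lower in the cluster led by Ace and Nr4a1 (19.3 and 30.5 CPM, -0.66, -1.25 to -0.07).

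Erythroid-like, megakaryocyte-like and B cell-like cells had no member called as classes. In erythroid-like cells the median was 0.00 (-0.03 to 0.02), 19 of 38 were above 0 and the summed level was 7939 CPM in HFD and 7963 CPM in ND, with 3.28% of all genes called higher and 1.16% lower. Bub3 (179 and 158 CPM, 0.18), Plk1 (0.14) and Anln (0.13) stood at the upper end, and Ccnb2 (137 and 153 CPM, -0.16), Cenpe (132 and 146 CPM, -0.14) and Mki67 (596 and 645 CPM, -0.11) at the lower. The class was spread differently over its clusters in the 2 libraries. Its 2 largest clusters, looked at after their values were seen, had higher medians than the class, and the 2 smaller ones did not. The cluster led by Mt2 and C1qtnf12 held 28.2% of the class in HFD and 36.5% in ND and had a median of 0.10 (0.07 to 0.12), with 33 of 38 members above 0. The cluster led by Car1 held 46.0% and 34.9%, with a median of 0.10 (0.03 to 0.12) and 29 of 38 above 0. The summed level was 8341 and 7877 CPM in the first of these clusters and 6454 and 6157 CPM in the second. A smaller cluster, with 12.7% of the class in HFD and 15.1% in ND, had a median of -0.00 (-0.07 to 0.04). The smallest, with 13.1% and 13.4%, had 14 members tested and a median of -0.49 (-1.40 to 0.41), against -0.41 for all genes. In megakaryocyte-like cells the median was -0.14 (-0.24 to -0.07), with 2.85% of all genes called higher and 2.28% lower, and Kif11 (72.7 and 95.8 CPM, -0.40), Nuf2 (-0.39) and Kif2c (-0.38) were lowest. Tubb4b (403 and 333 CPM, 0.28), Tacc3 (0.24) and Cks1b (0.17) were highest. In B cell-like cells the median was -0.14 (-0.20 to -0.03), with 2% and 1.8% of all genes called, and Aurkb (44.6 and 62.6 CPM, -0.49), Nusap1 (133 and 174 CPM, -0.39) and Bub1 (-0.36) were lowest. Bub1b (0.26), Tubb4b (0.13) and Cks1b (0.10) were highest. The clusters of B cell-like cells, looked at after their values were seen, went different ways. The largest, led by Vpreb3, a gene of immature B cells, had a median of -0.14 (-0.21 to 0.00). It had no member called, with no share of all genes given for it. In the cluster led by Ms4a1 24 of 26 members tested were above 0 with a median of 0.74, and 8 were called higher and 0 lower, against 2.99% and 2.71% of all genes. Mki67 had 122 and 50 UMIs there (150.4 and 81.0 CPM, 0.89) and Top2a 172 and 79 UMIs (212 and 128 CPM, 0.73), while 16 of 292 HFD and 7 of 221 ND cells were cycling. The 10 cells of this cluster with most member UMIs held 63.3% of them in HFD and 55.4% in ND. Of the cluster led by Ighd 13 members were tested, and Mki67 (12 and 41 UMIs, -1.97) and Top2a (16 and 44 UMIs, -1.66) were called lower and 0 higher, against 2.65% and 2.69% of all genes. Its 10 cells with most member UMIs held 18.6% of them in HFD and 45.4% in ND. B cell-like cells also had 3 G2/M regulators called lower: E2f7, a repressor of E2F targets (15.1 and 26.0 CPM, -0.78), Cdc25c, the phosphatase that activates Cdk1 (7.15 and 12.2 CPM, -0.77), and Espl1, separase (16.8 and 25.4 CPM, -0.60).

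Of the 17 classes, 7 had a called member. In NK cell-like cells 9 of 38 members were called higher and 0 lower, against 4.48% and 2.29% of all genes. Ube2c had 232 CPM in HFD and 115 CPM in ND (1.01, 0.71 to 1.30), Cks2 211 and 109 CPM (0.95), and Ccnb1 58.5 and 32.3 CPM (0.86). The other 6 were Cdk1, Cdc20, Birc5, Cenpf, Nuf2 and Nusap1, between 0.67 and 0.77. Ccnb2 had the lowest ratio of members with 100 UMIs (42.0 and 50.7 CPM, -0.27). The class had 219 HFD and 412 ND cells, of which 19 and 26 were cycling, and its 10 cells with most member UMIs held 78.6% and 54.6% of them. With levels from thinned cells 1 member was called higher, and with means over cells 2. S phase genes were called higher as well, 9 of 45 tested, among them the licensing factor Cdc6 (23.2 and 9.51 CPM, 1.29), thymidine kinase Tk1 (66.3 and 31.7 CPM, 1.06) and the helicase subunit Mcm2 (56.3 and 29.8 CPM, 0.92).

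Innate lymphoid cell-like, plasma cell-like, T cell-like and macrophage-like cells had low summed levels of the members, 1059 and 435, 687 and 575, 1119 and 948, and 579 and 669 CPM, against 532 and 544 CPM in mature neutrophil-like cells. In innate lymphoid cell-like cells 11 members had 20 UMIs and 6 were called higher (4.24% of all genes higher, 2.2% lower), led by Ube2c with 40 UMIs in HFD and 3 in ND, and the 10 cells with most member UMIs held 68.4% and 22.1%. With thinned cells 0 were called there. In macrophage-like cells 36 were tested, 7 were called lower and 1 higher, against 2.2% and 3.59% of all genes. Birc5 there had 59 UMIs in HFD and 98 in ND (-0.76) and Ube2c 63 and 97 (-0.65). With thinned cells 0 were called lower there, and with doublets kept 1. In T cell-like cells Ccnb2 and Tacc3, 2 of 36 tested, were called higher (3.48% of all genes higher, 1.61% lower), at 52 and 27 UMIs and at 50 and 27 UMIs. With means over cells 11 were, a setting for which no share of all genes is given. The 10 T cell-like cells with most member UMIs held 54.3% of them in HFD and 58.2% in ND. In plasma cell-like cells 26 were tested, and Ube2c, Bub3 and Tubb4b were called higher and Cks2 lower (2.58% and 6.34% of all genes). Tubb4b had 178 and 122 UMIs there (119 and 77.3 CPM, 0.63) and Cks2 39 and 76 UMIs (-0.88). The 10 plasma cell-like cells with most member UMIs held 64.9% of them in HFD and 59.9% in ND.

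Granulocytes other than neutrophils showed calls in places. In eosinophil-like cells 2 of 38 members were called lower and 0 higher, against 2.82% and 3.1% of all genes: Ccnb1 (36.8 and 60.7 CPM, -0.72, -1.19 to -0.26) and Ckap2 (30.6 and 47.2 CPM, -0.62). The median depth of these cells was 1686 UMIs in HFD and 2518 in ND. With cells thinned to 1000 UMIs 2 members were again called lower, and the median was -0.37, against -0.17 unthinned. With means over cells 11 were called lower, a setting for which no share of all genes is given. In basophil or mast cell-like cells as a class 0 of 38 were called, against 1.6% and 1.4% of all genes, with Ckap2 (0.11), Cks1b (0.09) and Kif23 (0.08) highest and Kif11 (84.6 and 106 CPM, -0.32), Bub1 (-0.26) and Cdca3 (-0.23) lowest. The clusters of the class, looked at after their values were seen, went different ways. The cluster led by Mcpt8 and Prss34 had 3 of 38 members above 0, with a median of -0.10 (-0.19 to -0.05). The interval lay below 0 for 15 members there, and 0 were called, but neither share over all genes is given for this cluster. Its summed level was 7033 CPM in HFD and 7568 CPM in ND, against 1495 and 1198 CPM in the cluster led by Ccl4 and Ccl3. In that second cluster, where few cells were cycling, the median was 0.75 (0.59 to 0.96). There 18 of 37 members tested were called higher and 0 lower, against 2.85% and 1.58% of all genes. Cenpe had 25.5 CPM in HFD and 12.4 CPM in ND (1.04) and Ube2c 56.4 and 29.2 CPM (0.95), whereas Cks2 (479 and 492 CPM, -0.04) and Tubb4b (140 and 154 CPM, -0.14) did not differ by 1.5-fold. The cluster had 38 cycling cells of 830 in HFD and 26 of 879 in ND, and its 10 cells with most member UMIs held 40.2% and 26.5% of them.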

How the data were processed

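UMI counts per cell and gene were deposited by the authors, 1 table per library, from version 1.9.1 of the BD WTA Rhapsody Analysis Pipeline and a custom reference, per the file headers. The aligner and the genome build were not given in the sources used here. The counts were used as deposited. Cells under 200 genes or over 25% mitochondrial UMIs were dropped, and doublets were called per library with Scrublet at an expected 5%. Kept cells of both libraries were clustered together with scanpy 1.11.5 (numpy 2.4.6, scipy 1.17.1, igraph 0.11.9) on counts scaled to 10000 per cell, 2000 variable genes without cell cycle and histone genes, 30 principal components, 15 neighbours and Leiden resolution 1. A cluster took a class name from at least 3 markers among its 50 leading genes. Named classes with at least 100 cells in each library were compared.

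Shares have exact Clopper-Pearson 95% intervals and their ratios log intervals. Levels (CPM) are UMIs of a gene per 1000000 UMIs summed over a class, with exact conditional binomial intervals for the ratio and 3 counts in place of 0. These intervals and floors cover counting error only. The 95% interval of a median over a list was taken from the ranks of its genes. It treats the genes as independent, which they are not, and does not measure counting error or differences between animals. A test was not possible at 1 library per diet, and diet cannot be told apart from any other difference between the libraries, such as animal, day or handling. The ratio calculation was tested on simulated data with independently drawn counts. That cannot show how the intervals behave where a few cells hold most of the member UMIs.

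All 38 members were described. Full values were given for a set of well-known members and, in each class, for members with at least 100 UMIs at the ends of the range of ratios; from the other cell cycle lists, at most 3 called genes per class were named. The members and lists were chosen with earlier results of these data known. Cks1b, Cks2 and Tubb4b have near-identical copies elsewhere in the genome, so their counts are uncertain. Cell filter, doublets, clustering, depth, number of members, scaling and low-count limit were varied.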

Additional observations from a re-analysis of the deposited data

Results flagged for a closer look

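The ratio of cycling shares, HFD over ND, had intervals on opposite sides of 1 in 2 classes, 1.07 in neutrophil progenitor-like cells and 0.804 in monocyte-like cells. The difference between the classes was not tested.

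Cells outside the comparisons also held member UMIs. Of the cells called doublets, 33.0% in HFD and 35.5% in ND had at least 3 members at 1000 UMIs. Of the cells that failed the filter and had 1000 UMIs, 9.63% in HFD and 6.17% in ND did. The shares of kept cells were 25.1% and 26.5%.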

How the results depend on the processing

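No paired analysis was possible because each diet had 1 library. The share ratio over all kept cells reversed to 1.03 at the ND class mix and 1.05 at the ND cluster mix, and that of monocyte-like cells to 1.01 at the ND cluster mix. The median log2 ratio of the members reversed to 0.071 in macrophage-like cells with means over cells, 0.22 in B cell-like cells when every variable gene was used for clustering, 0.0911 in megakaryocyte-like cells with doublets kept, and 0.0459 in basophil or mast cell-like cells with thinned levels. The cause was not tested.

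In HSPC-like cells the median moved to 0.13 without the cell filter, 0.13 with doublets kept, 0.093 at resolution 2.0, 0.30 with means over cells and 0.32 with thinned levels. In neutrophil progenitor-like cells it moved to 0.16 without the filter, 0.16 with doublets kept and 0.15 with means over cells, and the share ratio to 1.00 without thinning and 1.16 at 500 UMIs. In monocyte-like cells the median was -0.0634 without the filter, -0.0484 with doublets kept, -0.0115 with every variable gene, -0.25 at resolution 2.0, -0.31 with means over cells and -0.30 with thinned levels. In erythroid-like cells the share ratio was 0.930 without the filter and 1.04 at 5 members, and the median 0.0245 without the filter. Over the alternatives the number of members called higher ran between 0 and 5 in HSPC-like, 1 and 9 in NK cell-like, 0 and 11 in T cell-like, 0 and 13 in innate lymphoid cell-like, 0 and 7 in plasmacytoid dendritic cell-like and 0 and 4 in mature neutrophil-like cells. The number called lower ran between 0 and 10 in macrophage-like and 1 and 11 in eosinophil-like cells. The share of all genes called was taken at the main setting only, so these ranges have no background beside them.

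Depth limits the shares of macrophage-like cells, of which 591 of 1517 in HFD and 694 of 1714 in ND had under 1000 UMIs, and those of eosinophil-like cells in HFD, where 57 of 388 did, against 9 of 287 in ND.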
